A study of Mus musculus with 23 samples.

Results

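Striatum (ST) and frontal cortex (FC) of the same 4 mice on standard chow were compared on 8 arrays, 4 per region, chosen by the diet, region and mouse number in the sample titles from a series of 23 arrays. The mice were female C57BL/6 animals, labelled as 5 weeks old, that received only standard chow (SC) for 8 weeks and then passed an 11-day test battery before dissection, and they are named L52, L54, L56 and L58 here. The remaining arrays came from the third region sampled in these mice, called hypothalamus in the treatment protocol and a thalamic region in other labels (HT), and from mice that could also choose a chocolate mixture (CM), of which 4 ST and 3 FC arrays served below as other animals of the same contrast. In the study, the SC mice were also given the chocolate mixture for limited times during the test battery. Each array was hybridised with Cy3-labelled RNA of 1 dissected tissue piece of 1 mouse, so all cell types of the piece were read together.

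The striatum is the input station of the basal ganglia. Most of its neurons are GABAergic spiny projection neurons that receive dopamine and glutamate. They form a D1-type population, which carries the dopamine D1 receptor, substance P and dynorphin, and a D2-type population, which carries the dopamine D2 receptor, an adenosine receptor and enkephalin. Both depend on a cAMP cascade built from particular members of broad families, with Golf as stimulatory G protein, adenylyl cyclase 5, phosphodiesterase 10A and DARPP-32. The frontal cortex is built mainly from glutamatergic pyramidal neurons, whose identity rests on pallial transcription factors such as TBR1, together with several classes of GABAergic interneurons.

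For the retinoid X receptor gene Rxrg, which cleared the strictest threshold used below, and for Drd2, the marker of the D2-type population, the 250 bases upstream of each annotated start are shown, as examples of genes higher in ST. The sequences are from RefSeq (GRCm38.p6), plus strand, 5′ to 3′, and capitals mark the letters AGGTCA, the core motif of retinoid and other nuclear receptors.
Drd2, chr9:49340153-49340402: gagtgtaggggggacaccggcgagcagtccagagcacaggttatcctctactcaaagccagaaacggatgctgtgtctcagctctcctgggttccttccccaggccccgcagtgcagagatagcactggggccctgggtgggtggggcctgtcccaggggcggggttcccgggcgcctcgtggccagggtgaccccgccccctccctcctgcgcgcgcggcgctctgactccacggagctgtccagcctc
Rxrg, start a, chr1:167598112-167598361: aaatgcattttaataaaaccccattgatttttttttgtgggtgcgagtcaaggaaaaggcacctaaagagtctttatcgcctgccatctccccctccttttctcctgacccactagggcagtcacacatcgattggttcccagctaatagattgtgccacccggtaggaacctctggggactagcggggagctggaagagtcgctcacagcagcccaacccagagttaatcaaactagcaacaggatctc
Rxrg, start b, chr1:167618015-167618264: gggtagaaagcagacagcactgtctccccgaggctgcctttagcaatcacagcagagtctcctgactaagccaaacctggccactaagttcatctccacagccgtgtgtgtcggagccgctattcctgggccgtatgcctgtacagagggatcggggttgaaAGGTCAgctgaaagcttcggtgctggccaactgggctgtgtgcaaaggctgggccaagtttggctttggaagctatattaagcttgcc
Start b of Rxrg holds AGGTCA once, and neither start a nor the Drd2 window holds it on either strand. The same search was run on the genes that differed between the regions by the wider rule given below, of which 158 of 210 higher in ST and 103 of 148 higher in FC had a window. AGGTCA was found for 20 of the 158 ST genes (12.7%), 18 of the 103 FC genes (17.5%) and 15.8% of all 27025 genes with a window. The cAMP response element TGACGTCA, which ends in the same letters as AGGTCA but does not contain it, was found for 1.27% of the ST genes, 1.94% of the FC genes and 1.77% of all genes. The E-box CAGATG, a motif bound by bHLH factors, was found for 16.5%, 19.4% and 16.3%. The shares in the ST and FC genes were near those of all genes for each of the 3 motifs, and a match describes letters only.

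The labels were first checked with markers of both regions, as normalised log2 intensities. Drd2 was at 10.60 in the ST array of L52, 9.29 in L54, 10.09 in L56 and 10.61 in L58, and at 5.49, 7.67, 8.11 and 7.60 in the FC arrays of the same mice. All 4 ST arrays lay above all FC arrays, with means ± SD of 10.15 ± 0.62 and 7.22 ± 1.17 (n = 4 each). The difference, ST minus FC, was 2.93 (SE 0.56, limma adjusted p = 0.0404), a 7.61-fold higher level. Adora2a, the adenosine receptor of the D2-type neurons, was at 13.57, 13.13, 12.63 and 14.29 in ST and at 7.36, 8.82, 10.63 and 10.73 in FC. Its difference of 4.02 (SE 0.76, adjusted p = 0.0381) was the largest of all 31395 probes tested. Ppp1r1b, which encodes DARPP-32, was at 16.68, 16.16, 16.80 and 17.77 in ST and at 12.75, 14.27, 14.67 and 14.74 in FC, a difference of 2.75 (SE 0.51, adjusted p = 0.0380). The 3 striatal markers thus separated the regions in every array, and each was lowest in the FC array of L52. Here and below, fewer cells of a type and less RNA per cell cannot be told apart in tissue pieces.

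The cortical marker did not separate the arrays in this way. Tbr1 was at 11.61, 11.03, 11.56 and 11.31 in the FC arrays of L52, L54, L56 and L58. In ST it was at 9.03 in L52, 11.37 in L54, 9.05 in L56 and 10.51 in L58, so the ST array of L54 lay inside the cortical range and above the FC array of its own mouse. The difference was -1.39 (SE 0.50, adjusted p = 0.202), and without the ST array of L54 it was -1.83 (adjusted p = 0.0311). That was the largest size when any 1 array was left out. The smallest was -1.06, and the limma adjusted p reached 0.482. Over all 15 genes of a list for cortical projection neurons, the mean log2 intensity was 10.17 in the ST array of L54 and 9.33 in that of L58, against 8.35 and 8.14 in L52 and L56. The 4 FC arrays were between 10.14 and 10.95, so for this list the ST array of L54 was level with the FC array of the same mouse. The 23 genes shared by striatal projection neurons showed the opposite order, with 14.20, 13.65, 14.16 and 14.28 in the ST arrays and 11.50, 12.39, 12.61 and 12.40 in the FC arrays. The striatal label of L54 was therefore met by striatal genes, and the FC array of L52 stood below the other FC arrays for the same genes. The part of these levels in the comparison was not tested beyond leaving out the arrays in turn.

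**Figure D1:**
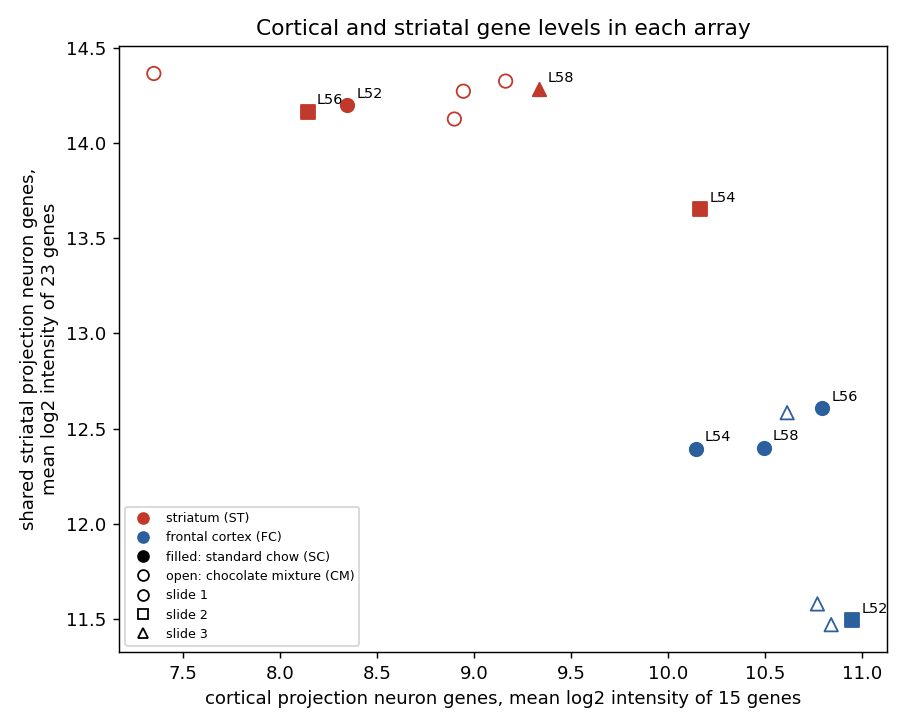
Mean log2 intensity of 23 striatal projection neuron genes (y axis) against that of 15 cortical projection neuron genes (x axis), 1 point per array, ST in red and FC in blue, SC arrays filled and labelled by mouse, CM arrays open, symbols by slide. The ST and FC arrays are apart on the y axis, while on the x axis the ST array of L54 lies at 10.17, inside the FC range.

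The arrays were spread over 3 slides. Of the SC arrays, slide 1 held FC of L54, L56 and L58 and ST of L52, slide 2 held FC of L52 and ST of L54 and L56, and slide 3 held ST of L58. A difference within slide 1 and another within slide 2 could thus be formed for each probe, and they are given below without a test. The ST and FC arrays of each mouse lay on different slides, so every within-mouse difference is also a difference between slides. Well above background were 36432 to 38472 spots in the FC arrays and 38191 to 39380 in the ST arrays, with no saturated spot. The number of arrays limits the precision.

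At the fold and p limits used by the study for these regions (at least 2-fold, adjusted p under 0.01), 2 of 31395 probes (0.00637%) were differentially expressed, both higher in ST. They were Cd72, which encodes a lectin-like receptor known from B cells (probe at chr4:43460607-43460666, mm9, minus strand), and Rxrg, which encodes the retinoid X receptor gamma (probe at chr1:169569624-169569683, mm9, plus strand). Cd72 was at 8.74, 8.65, 8.56 and 8.52 in the ST arrays of L52, L54, L56 and L58 and at 6.30, 6.60, 6.73 and 6.35 in FC. The difference was 2.12 (SE 0.15, adjusted p = 0.00247), and its 4 within-mouse values lay between 1.83 and 2.44. Rxrg was at 14.11, 13.77, 14.23 and 14.37 in ST and at 11.35, 11.90, 12.07 and 11.83 in FC, a difference of 2.33 (SE 0.21, adjusted p = 0.00993). Cd72 and Rxrg combined a more than 4-fold difference with a spread of 0.31 or less between arrays of a region, whereas for Drd2 or Adora2a the FC arrays alone had SDs of 1.17 and 1.61.

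The limits that the study applied to its diet contrast in HT (at least 1.5-fold, adjusted p under 0.05) are called the wider rule here. With them 503 probes differed (1.6%), of which 291 were higher in ST (0.927%) and 212 higher in FC (0.675%). All 503 had the same sign in the 4 mice, within slide 1, within slide 2 and in a fit with slide terms. These signs come from the same arrays as the calls, so they are no separate evidence. The sign in the fit with slide terms also follows from those within slides 1 and 2. Over all probes, the 4 mice were all higher in ST for 10.3% and all higher in FC for 12.1%. The count itself was not stable. In the fit with slide terms it was 270, of which 208 were among the 503. Of the arrays fitted, slide 3 held only the ST array of L58, so this difference came from slides 1 and 2 alone. The fit with slide terms thus also set that array aside, and its omission alone left 1 probe by the wider rule. How much of the change in calls came from slide terms and how much from losing that array was not tested. By direction, 178 of the 291 probes higher in ST and 30 of the 212 higher in FC were called again. The main rule then gave 0 probes (5187 with an unadjusted p under 0.05 in limma). Treating mouse pairs as a fixed block left 0 by either rule (4614 with an unadjusted p under 0.05 in limma), and without the replicate block, which in the reported fit was a random effect of the mouse, the counts were 56 by the main rule and 999 by the wider rule. Without the ST array of L56, the ST array of L58 or the FC array of L58 the wider rule gave 1 probe in each case. It gave 117 without the FC array of L54, 327 without that of L56, 1214 without the ST array of L52 and 1285 without that of L54. By the main rule the count was 0 without the FC array of L54 or L58 or the ST array of L56 or L58 (3442 to 4451 probes with an unadjusted p under 0.05 in limma). It was 2 without the FC array of L56, 52 without that of L52, and 7 and 228 without the ST arrays of L52 and L54. With both ST arrays of L52 and L54 left out, 3028 probes passed the wider rule and 352 the main rule. The model of the study, fitted to all 23 arrays with array weights, called 680 probes by the main rule (2.17%), 398 higher in ST (1.27%) and 282 higher in FC (0.898%), and 306 of the 503 were among them with the same sign.

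Other animals of the same series showed the same direction. Of the 503 probes, 502 had the same sign in the CM mice (99.8%, against 53.7% of all probes), and 365 of them passed the main rule there (72.6%, against 9.23% of all probes). By direction, 241 of the 291 probes higher in ST passed there (against 3.97% of all probes) and 124 of the 212 higher in FC (against 5.27% of all probes). The probes higher in ST had a median difference of 1.36 in SC and 1.70 in CM mice, and 232 of 291 were larger in CM. The probes higher in FC had medians of -1.17 and -1.13, and 100 of 212 were larger in size in CM. All CM ST arrays lay on slide 1 and all CM FC arrays on slide 3, so region and slide cannot be told apart in CM mice. The exception in sign was the unnamed transcript 4933436H12Rik, at 1.02 in SC and -0.95 in CM mice. The median SE over all probes was 0.194 in SC and 0.0931 in CM mice.

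**Figure D2:**
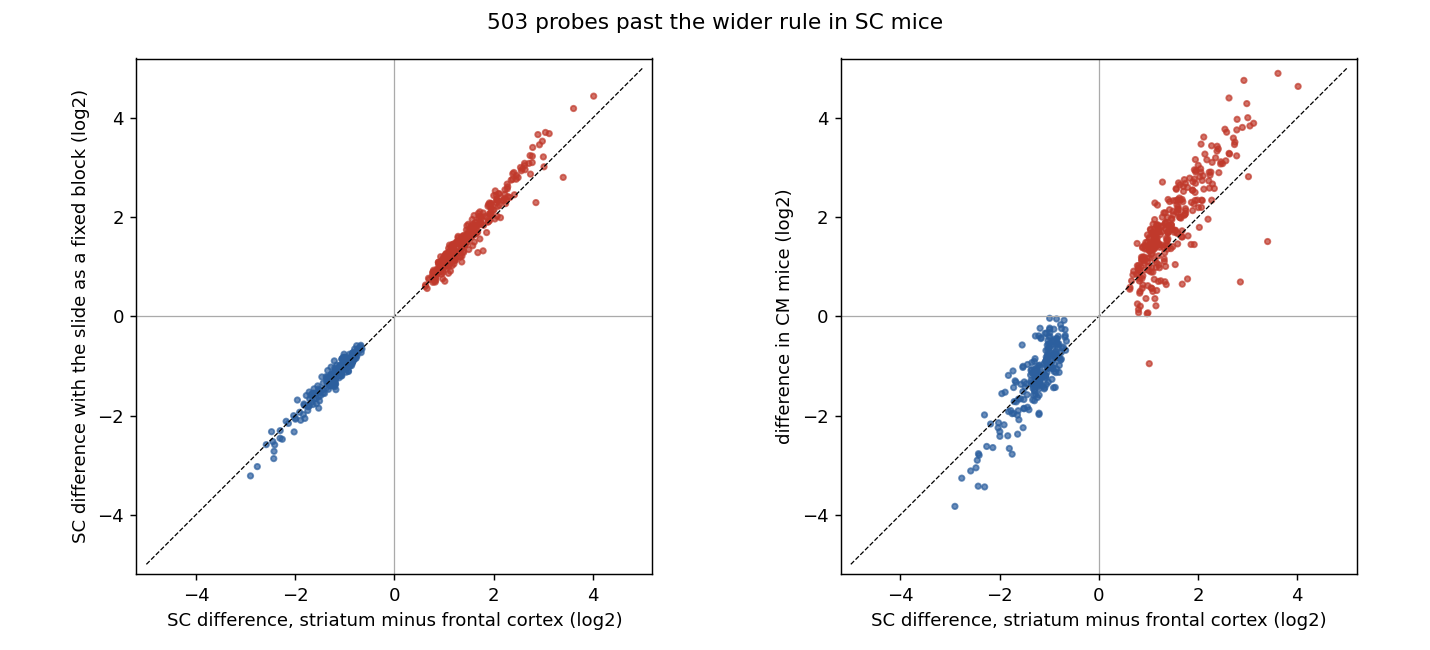
Differences of the 503 probes, ST minus FC in log2 intensity, in SC mice (x axes) against the SC difference from the fit with slide terms (left) and against the difference in CM mice (right), red for probes higher in ST and blue for probes higher in FC, with the line of equal values dashed. No probe changes sign in the left plot, which compares fits of the same arrays, and 1 of 503 does in the right plot.

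The 10 largest differences per direction were taken among probes past the wider rule with a RefSeq transcript accession. Their ST and FC arrays did not overlap, all mice and slides 1 and 2 shared the sign, and the brighter region was above background. Larger differences that missed the rule, such as Syndig1l and Six3 below, were left out. Among the 10 genes higher in ST were the receptor genes Adora2a, Drd3 and Drd2. Drd3, the dopamine D3 receptor of the ventral striatum, was at 8.01, 8.07, 8.63 and 9.14 in the ST arrays of L52, L54, L56 and L58 and at 4.44, 5.33, 6.21 and 5.79 in FC, where 3 of 4 arrays were well above background. The set also held Lrrc10b (difference 3.61), Nexn, an actin-binding protein (3.12), Scube3, a secreted glycoprotein (3.01), Serpina9, a serine protease inhibitor (2.99), Spock3, a testican proteoglycan (2.86), and Ido1. Ido1 encodes the enzyme that opens the kynurenine pathway of tryptophan breakdown. It was at 5.82, 7.55, 8.33 and 8.12 in ST and at 3.89, 3.88, 3.96 and 4.46 in FC, where no array was well above background. Its measured mean level was 10.6-fold higher in ST (adjusted p = 0.0239), a ratio to FC values that were not told apart from background. In the fit with slide terms Ido1 missed the rule, with a difference of 2.80 (adjusted p = 0.0723), and within slide 1 the difference was 1.72. Each of these named genes was higher in ST in CM mice as well, by 0.69 for Spock3, 1.51 for Ido1 and between 2.82 and 4.90 for the rest.

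Higher in FC by the largest amounts under the same choice were Hkdc1, a hexokinase-like enzyme (-2.90), Smoc2, a matrix protein (-2.76), and the peptide gene Vip (-2.43). Hkdc1 was at 12.09, 11.13, 11.65 and 11.39 in the FC arrays of L52, L54, L56 and L58 and at 7.96, 10.60, 7.64 and 8.47 in ST (adjusted p = 0.0457). Its ST value in L54 was again next to the cortical range, and the difference without that array was -3.53. The set went on with Tnnc1, a troponin C (-2.43), Clec18a, a C-type lectin (-2.41), Igfn1 (-2.30), Tafa1, a secreted chemokine-like protein (-2.30), the bHLH factor Bhlhe22 (-2.26), mesothelin, Msln (-2.18), and Aldh1a3 (-2.03). Their adjusted p lay between 0.0184 for Aldh1a3 and 0.0497 for Smoc2. Igfn1 and Aldh1a3 were well above background on 2 of 4 ST arrays and on all FC arrays. For 9 of the 10 genes, all but Aldh1a3, the adjusted p in the fit with slide terms was above 0.05, between 0.0598 and 0.108, with the difference between -2.12 and -3.22.

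**Figure D3:**
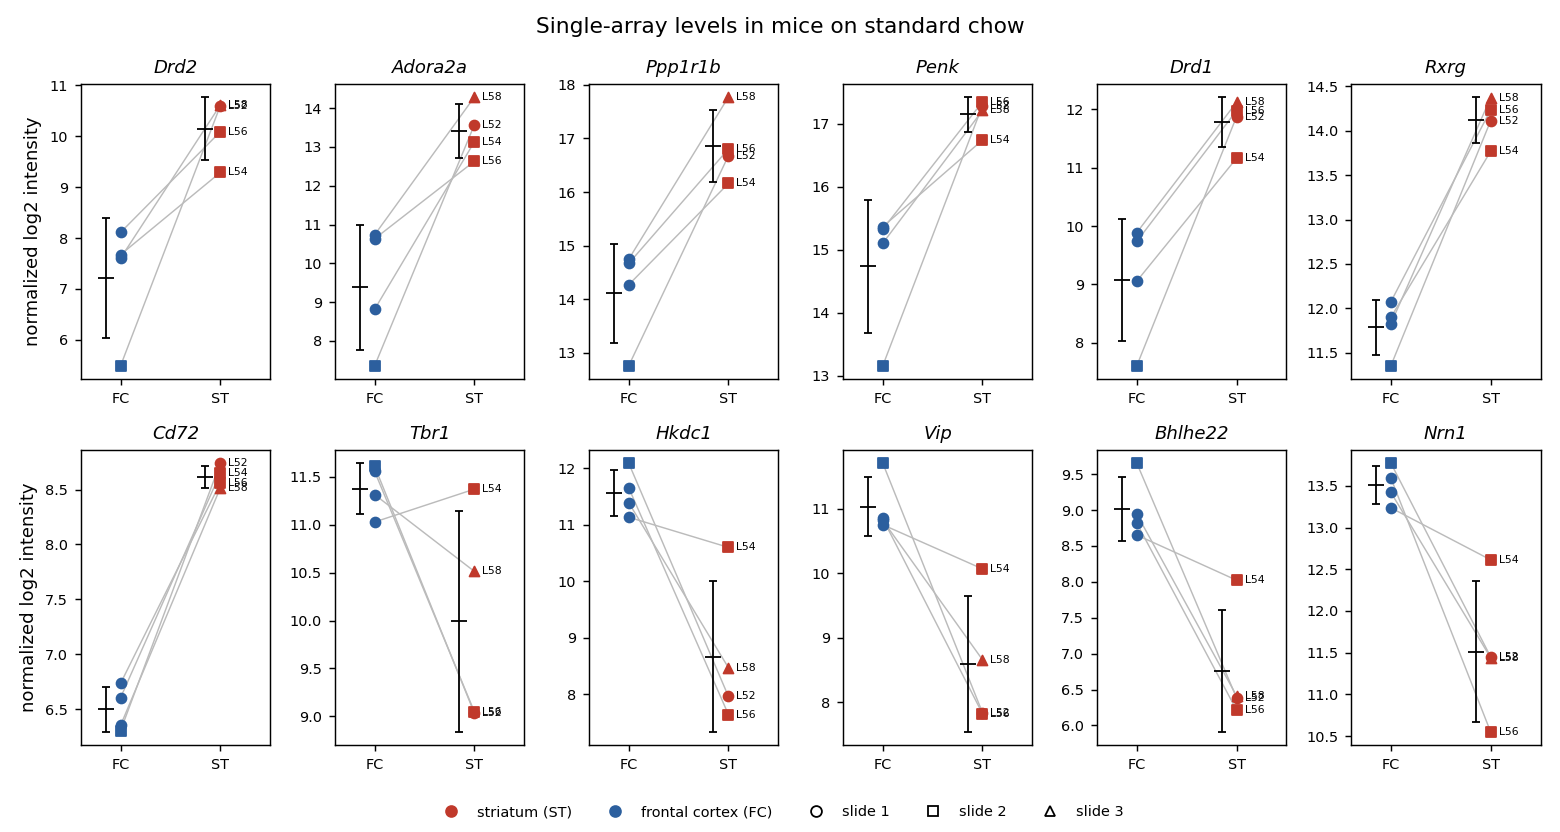
Normalised log2 intensity of 12 genes in the SC arrays, FC left and ST right in each panel, with lines joining the arrays of 1 mouse, symbols by slide, and black bars for mean ± SD of 4 arrays. Cd72 and Rxrg are tightly grouped, the FC array of L52 is lowest for the striatal genes, and the ST array of L54 is highest in ST for Tbr1, Hkdc1, Vip, Bhlhe22 and Nrn1.

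Lists of genes by cell type and family describe which parts of the striatal programme were covered. Their members were chosen with earlier results of these data known, so the counts describe the lists and test nothing. Counts below are by the wider rule, to be read against 0.927% of all probes higher in ST, 0.675% higher in FC and a median of 0.00 over all probes. Of the 47 probes called in any list, 32 also passed the rule in the fit with slide terms. Among the 15 that did not (adjusted p from 0.0515 to 0.104) were Chrm4, Foxp1, Adcy2, Rgs8, Chat, Vip and Trpc4. Of the 6 genes of D2-type neurons, 4 rose in ST, with a list median of 2.40. They were Adora2a, Drd2, Penk and Gpr6. Penk, the enkephalin precursor, was at 17.29, 16.74, 17.35 and 17.21 in the ST arrays of L52, L54, L56 and L58 and at 13.16, 15.36, 15.32 and 15.10 in FC, a difference of 2.41 (adjusted p = 0.0433), with the FC array of L52 apart from the other FC arrays. Gpr6, a constitutively active receptor of these cells, differed by 2.38 (adjusted p = 0.0323). Gpr52 and Sp9 were at 0.93 and 0.89 (adjusted p = 0.113 and 0.443).

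Of the 9 genes of D1-type neurons, 4 rose, with a median of 1.35. Drd1, the dopamine D1 receptor, was at 11.88, 11.16, 11.98 and 12.12 in ST and at 7.60, 9.06, 9.74 and 9.89 in FC, a difference of 2.71 (adjusted p = 0.0365). Tac1, the substance P precursor, differed by 2.05 (adjusted p = 0.0319), the factor Ebf1 by 1.34 (adjusted p = 0.0344) and the muscarinic M4 receptor Chrm4 by 0.83 (adjusted p = 0.0373). Pdyn, the dynorphin precursor, was at 1.35 (adjusted p = 0.0681), with ST arrays above all FC arrays, while a brighter Pdyn probe, listed by an Ensembl transcript only, passed the rule at 1.42 (adjusted p = 0.0417). Isl1 and Slc35d3 were at 2.67 and 2.47 (adjusted p = 0.0587 and 0.121), also without overlap, while Eya1 and Sfxn1 were at -0.14 and 0.15. For D1-type and D2-type genes together the arrays thus separated for 12 of 15 members, against 5.2% of all probes with ST above FC. Whether the 2 populations differed in their excess over cortex was not tested.

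Among 23 genes shared by both populations, 16 rose and none fell, with a median of 1.90 (1.62 to 2.05 when any 1 array was left out, lowest without the FC array of L52). Rgs9, Ppp1r1b and Pde10a were among the largest of the called members. Scn4b, a sodium channel beta subunit, was at 15.66, 15.05, 15.58 and 15.56 in ST and at 12.07, 13.09, 13.64 and 13.07 in FC (difference 2.50, adjusted p = 0.0164). Rasd2, a striatal small GTPase known as Rhes, was at 16.09, 15.56, 16.08 and 16.48 in ST and at 13.04, 13.82, 14.28 and 13.90 in FC (2.29, adjusted p = 0.0164). Syndig1l reached 3.87, yet missed the rule at an adjusted p of 0.0653, with 6.29 in the FC array of L52 and 9.95 to 10.47 in the other FC arrays. The smallest members were Itpr1 (0.31) and Meis2 (0.51), both with overlapping arrays.

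The genes of the cAMP cascade were listed by family. Of 31 G protein subunits, 2 rose and none fell, with a median of 0.12. They were Gnal, the alpha subunit of Golf, at 14.07, 13.25, 13.95 and 13.90 in ST and at 12.23, 12.16, 12.49 and 12.48 in FC (difference 1.45, adjusted p = 0.0209), and Gng7, its gamma subunit, with a difference of 2.08 (adjusted p = 0.0181). Gnas, the alpha subunit of the related Gs protein, was at -0.49 (adjusted p = 0.115), with all FC arrays above all ST arrays, as for 6.23% of all probes. Of 10 adenylyl cyclases, Adcy5 rose and Adcy2 fell. Adcy5 was at 14.10, 13.25, 13.84 and 13.66 in ST and at 11.02, 11.91, 12.15 and 12.17 in FC (1.90, adjusted p = 0.0238), and Adcy2 at 11.05, 11.60, 10.64 and 11.26 against 12.44, 12.13, 12.09 and 12.17 (-1.07, adjusted p = 0.0457). Neither pair of groups overlapped. None of the other 8 cyclases passed the rule, the closest being Adcy6 at -0.56 (adjusted p = 0.111).

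Of 24 phosphodiesterase genes, which break down cyclic nucleotides, 3 rose and none fell, with a list median of 0.27. Pde10a was at 14.84, 14.26, 14.91 and 14.91 in ST and at 10.97, 12.31, 12.82 and 12.25 in FC, a difference of 2.64 (adjusted p = 0.0184). Pde1b, a calcium and calmodulin dependent form, differed by 1.95 (adjusted p = 0.0184) and the cAMP-specific Pde7b by 1.73 (adjusted p = 0.0163). The lowest member was Pde1a at -1.11 (adjusted p = 0.126), with overlapping arrays. Of 21 RGS proteins, which shorten G protein signalling, Rgs9 and Rgs8 rose, by 2.79 (adjusted p = 0.0457) and 1.13 (adjusted p = 0.0448), and the other 19 lay between -0.82 and 0.67. In each of these families 2 or 3 members passed the rule, and the list medians lay between -0.27 and 0.27. The arrays did not overlap for more members than passed, 8 of 31 G protein subunits, 4 of 10 cyclases, 8 of 24 phosphodiesterases and 7 of 21 RGS proteins, counted in both directions (against 5.2% and 6.23% of all probes with ST above FC and FC above ST).

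Of the 5 dopamine receptors, Drd1, Drd2 and Drd3 rose, and Drd4 and Drd5 were at -0.35 and 0.05. Of 8 opioid genes, Penk and the kappa receptor Oprk1 rose. Oprk1 was at 9.53, 8.79, 8.74 and 9.84 in ST and at 7.06, 7.77, 8.01 and 7.67 in FC (1.60, adjusted p = 0.0381). The mu receptor Oprm1 was at 0.67 (adjusted p = 0.134), with ST above FC in all arrays, and the delta receptor Oprd1 at -0.05.

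Retinoic acid signalling was represented by 17 genes, of which 2 rose and 1 fell. The risen members were both nuclear receptors, Rxrg and Rarb. Rarb was at 11.78, 10.76, 11.61 and 11.74 in ST and at 8.15, 9.31, 9.66 and 9.62 in FC, a difference of 2.29 (adjusted p = 0.0297), and a further Rarb probe gave 1.69 (adjusted p = 0.0614). The fallen member was the synthesising enzyme Aldh1a3, at 5.25, 5.94, 5.25 and 4.62 in ST and at 7.70, 7.28, 7.03 and 7.17 in FC. The related receptor genes Rara, Rxra and Rxrb were at -0.60, 0.40 and -0.03, none past the rule.

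Transcription factors were listed by the part of the embryonic forebrain in which they are known to act. Of 22 subpallial factors, 5 rose and none fell, with a median of 1.18. They were Nkx2-1 (2.36), Rarb, Bcl11b (1.61), Ebf1 and Foxp1 (1.23). The largest value, Six3 at 3.77, missed the rule (adjusted p = 0.0745), with 11.10, 10.08, 11.44 and 12.14 in ST and 4.60, 7.79, 8.51 and 8.77 in FC. Dlx1 was at -1.14 with all FC arrays above all ST arrays, but without passing the rule (adjusted p = 0.356). Of 19 pallial factors, 5 fell in ST and none rose, with a median of -1.34. Bhlhe22 was at 9.66, 8.65, 8.82 and 8.94 in FC and at 6.38, 8.02, 6.21 and 6.41 in ST. Neurod1 (-1.84), Mef2c (-1.48), Cux2 (-1.20) and Lhx2 (-1.03) were the others. Emx1, Neurod2, Neurod6 and Fezf2 were between -1.34 and -1.75 with overlapping arrays and no call.

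All 15 cortical projection neuron genes had values below 0, with a median of -1.67, and 5 fell by the rule, Bhlhe22, Nrn1, Neurod1, Mef2c and Lhx2. In the fit with slide terms none of the 5 passed, with adjusted p from 0.0561 to 0.104. Nrn1, neuritin, was at 13.77, 13.24, 13.60 and 13.42 in the FC arrays of L52, L54, L56 and L58 and at 11.45, 12.61, 10.55 and 11.44 in ST (-1.99, adjusted p = 0.0403). Slc17a7, the vesicular glutamate transporter of cortical neurons, was at 12.40, 11.82, 12.04 and 12.26 in FC and at 9.08, 11.68, 9.05 and 12.05 in ST, so that the ST arrays of L54 and L58 were at the cortical level and no difference was called (-1.67, adjusted p = 0.280). The list median was -2.06 without the ST array of L54 and -1.33 without that of L56. Of 10 upper layer genes, Cux2 and Rasgrf2 fell, the latter with 8.60, 8.46, 8.24 and 8.59 in FC and 7.09, 7.53, 6.99 and 6.99 in ST (-1.32, adjusted p = 0.0164). Of 15 deep layer genes, none fell, and Pcp4, a calmodulin regulator that striatal neurons also express, rose at 16.63, 16.67, 16.84 and 16.65 in ST and 15.26, 15.58, 15.47 and 15.09 in FC (1.35, adjusted p = 0.0163).

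Interneuron genes were listed by class. Of 6 cholinergic genes, 2 rose, among them Chat, and the list median was 2.48. Chat, choline acetyltransferase, was at 10.50, 9.32, 10.30 and 9.71 in ST and at 6.90, 6.85, 7.68 and 8.55 in FC (2.46, adjusted p = 0.0323). The transporters Slc5a7 and Slc18a3 were at 2.49 and 2.43 (adjusted p = 0.0658 and 0.0555), with arrays apart. Of 11 other interneuron genes, 3 fell in ST and none rose. Vip was at 11.70, 10.75, 10.85 and 10.82 in FC and at 7.84, 10.07, 7.83 and 8.66 in ST. Crh, corticotropin-releasing hormone, was at 10.42, 10.84, 10.09 and 10.48 against 8.76, 9.17, 8.74 and 8.41 (-1.69, adjusted p = 0.0167), and the serotonin receptor subunit Htr3a differed by -1.18 (adjusted p = 0.0386). Pvalb, Sst and Npy were at 0.52, 0.11 and -0.42 with overlapping arrays. No member of the GABA list (5 genes, median 0.63) or of the glutamate list (7 genes, median -0.33) passed, although 4 of 5 GABA genes were above 0.

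**Figure D4:**
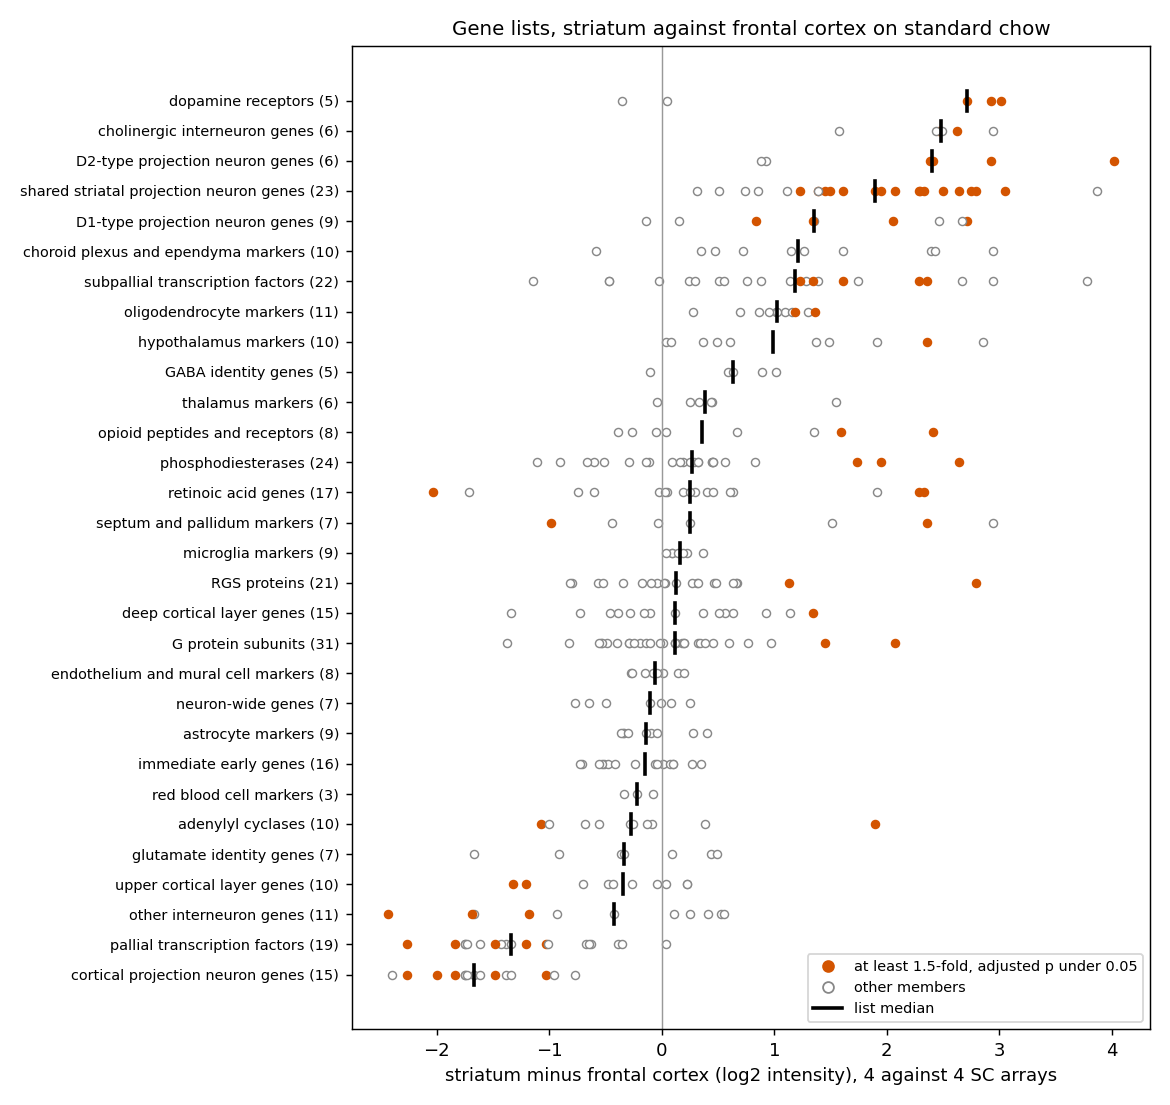
Differences, ST minus FC in log2 intensity over 4 against 4 SC arrays (x axis), of the members of 30 gene lists (y axis, number of genes measured in brackets), with probes past the wider rule in orange and the list median as a black line. Dopamine receptor, cholinergic and striatal projection neuron lists lie to the right, and the cortical projection neuron and pallial factor lists to the left. The upper and deep cortical layer lists have medians of -0.35 and 0.12. The enzyme and G protein families hold a few called members around medians near 0.

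Among other cell types, 2 of 11 oligodendrocyte markers rose in ST. All 11 had differences above 0, the arrays were apart for 8 (against 5.2% of all probes), and Opalin and Cldn11 passed the rule, with a median of 1.02. Opalin was at 10.13, 10.11, 10.75 and 10.71 in ST and at 9.04, 8.60, 9.45 and 9.16 in FC (1.36, adjusted p = 0.0373), and Cldn11 at 13.53, 13.59, 14.18 and 13.82 against 12.13, 12.70, 13.04 and 12.54 (1.18, adjusted p = 0.0484). Neither passed in the fit with slide terms (adjusted p = 0.104 and 0.103). No member passed for astrocytes (9 genes, median -0.14), microglia (9, 0.16), endothelium and mural cells (8, -0.06), red blood cells (3, -0.22) or neuron-wide genes (7, -0.11). No immediate early gene passed either (16 genes, -0.73 to 0.35), with Fos at -0.71 (adjusted p = 0.0813) and Npas4 at -0.73 (adjusted p = 0.0626), both with FC arrays above all ST arrays.

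Markers of neighbouring tissue varied between the arrays of a region. The mean log2 intensity of 10 hypothalamus markers was 10.67 in the ST array of L52 and 6.59, 7.94 and 7.61 in the ST arrays of L54, L56 and L58. In the FC arrays it was 6.52 to 7.80 and in the HT arrays 8.93 to 12.54, so the ST array of L52 was in the HT range. The hypothalamic peptide genes Pmch and Hcrt were at 14.40 and 15.45 in that array and at 6.52 to 9.93 and 7.67 to 7.83 in the other ST arrays. The list median was 0.99 over all arrays, -0.06 without the ST array of L52 and 2.10 in the fit with slide terms, with 2.39 within slide 1, which held that array, and 0.58 within slide 2. Nkx2-1 was the only member called, and it was also above all FC arrays in the other ST arrays (7.60, 5.71, 7.05 and 6.84 against 3.86, 4.21, 4.56 and 5.14, with 2 of 4 FC arrays well above background). Of 6 thalamus markers none passed, with mean levels of 10.41 and 10.13 in the ST arrays of L52 and L56 and of 8.74 to 9.25 in the other ST and FC arrays. Of 7 septum and pallidum genes, Nkx2-1 rose and the channel gene Trpc4 fell (-0.98, adjusted p = 0.0323). Choroid plexus and ependyma markers had a median of 1.21 with no call among 10, and their most abundant gene Ttr was at 10.61 (L54) to 14.16 (L58) in ST and at 7.82 (L58) to 11.50 (L56) in FC. The part of these tissues in the differences was not tested.

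**Figure D5:**
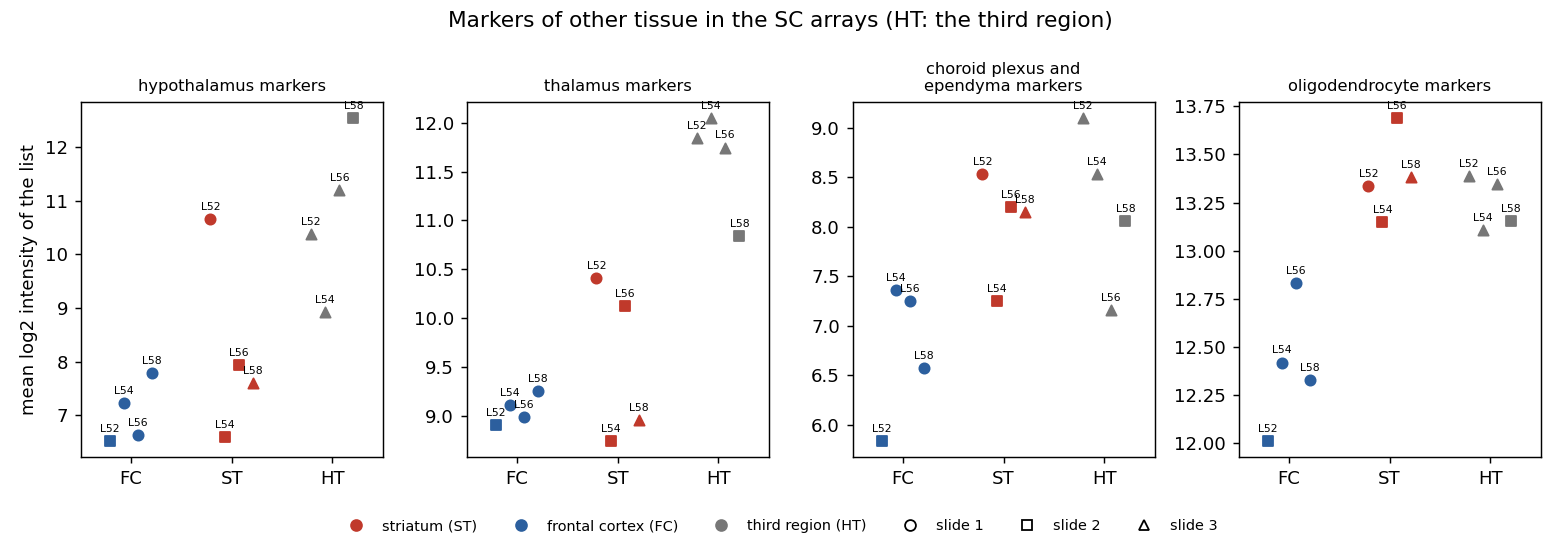
Mean log2 intensity of 4 marker lists in the SC arrays, 1 point per array, labelled by mouse, by region (FC, ST and the third region, HT), with symbols by slide. The ST array of L52 is at 10.67 for hypothalamus markers, while oligodendrocyte markers are higher in all ST than in all FC arrays.

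Whether the contrast between ST and FC differed by diet was asked with an interaction term over 15 arrays. With an adjusted p under 0.05 there were 3146 probes (10%), and none with at least 2-fold and an adjusted p under 0.01 (9223 with an unadjusted p under 0.05 in limma). Of the 503 probes, 13 had an interaction at an adjusted p under 0.05. Among them were 4933436H12Rik (adjusted p = 0.0189), whose sign differed between the diets as given above, and Spock3, at 2.86 in SC and 0.69 in CM mice (interaction -2.16, SE 0.52, adjusted p = 0.0269). In the fit with slide terms its interaction was -0.40 (adjusted p = 0.854), and the number of probes fell from 3146 to 287. Without 1 array the number was 0 (without the SC FC array of L58, the CM FC array of O54 or that of O56) to 9397 (without the SC ST array of L52), and each of the 15 omissions moved it by more than 1.5 times.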

How the data were processed

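Total RNA of each tissue piece was labelled with Cy3 and hybridised to 1-colour Agilent mouse 8x60K arrays, scanned with Feature Extraction 10.7.3.1. The deposited series table holds log2 values that the authors made in limma by normexp background correction and quantile normalization between arrays. Dim probes were filtered out and spots with the same accession were averaged, which left 31395 rows. A row is called a probe here, although it can average several probes of an accession. The deposited scanner files hold intensity values per spot and calls per spot (well above background, saturated). Normexp correction and quantile normalization of these intensities gave the table's values again, so no rescaling was applied. Gene symbols were taken from the scanner files by accession and updated with RefSeq (GRCm38.p6). Of the rows, 18004 matched by accession, 1870 by symbol and 329 by synonym, and 11192 kept the array's name. Probe positions are on mm9, as in the scanner files, and are those of the first probe of a row.

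Differences between regions were fitted in R 4.3.3 with limma 3.58.1 on the 8 arrays, with the mouse as a random block (consensus correlation -0.151) and Benjamini-Hochberg adjustment over all 31395 rows. The pairing follows from the labels, as arrays of 1 number came from 1 mouse. Deviations from the region means correlated at -0.486, -0.221, -0.170 and 0.111 within L52, L54, L56 and L58, so paired arrays did not deviate together. All of these pairs lay on different slides. Between ST and FC arrays of different mice the correlations were -0.001 to 0.334 on the same slide and -0.242 to 0.258 on different slides. The parts of mouse and slide in these values were not tested. The estimates of the fit were checked on simulated arrays with known differences. These arrays were drawn independently, without mouse, slide or tissue effects, so the check could not test the block or the shifts in the counts. Alternatives covered the slide, the block, array weights, the arrays fitted, background and normalization, a filter on dim probes, averaging, thresholds and each array left out. A further one, without both ST arrays of L52 and L54, was chosen after seeing the data.

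The comparison, its gene lists and its tests were chosen with earlier results of these data known. Named genes were the 4 region markers, the 10 called genes with the largest differences per direction (non-overlapping, same sign in all mice and slides, above background in the brighter region), up to 4 called members per list and any called against it. As only Cd72 and Rxrg passed the main rule, the same choice was made at the wider rule after values were seen, as were list members named beyond it. Where several probes match a symbol, the brightest with a RefSeq transcript accession was used. The genes Rgs1, Rgs18, Gngt1, Otp and Hbb-b1 of the lists were not among the tested rows. Some genes are not reported here by name and stay in the counts of lists and probes. Promoter windows hold 250 bases before the start.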

Additional observations from a re-analysis of the deposited data

Results flagged for a closer look

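In 9 of 108 sets of 4 arrays (54 named probes in both regions), 1 array lay far from the other 3, with a gap over the whole range above the 0.829 limit, and chance alone gives about 1 in 20 such sets. The FC array of L52 was apart for 3 genes. For the striatal genes Lrrc10b (gap ratio 0.917) and Penk (0.881) it was lower, at 6.34 against 9.53 to 9.82 and at 13.16 against 15.10 to 15.36. For Vip (0.899) it was higher, at 11.70 against 10.75 to 10.85. The ST array of L54 was apart for 4 genes. It was lower for Pde10a (0.890), Pde1b (0.952) and Rarb (0.840), and higher for the cortical gene Bhlhe22 (0.890), at 8.02 against 6.21 to 6.41. The FC array of L58 was higher for Ido1 (0.871), below background, and the FC array of L56 was lower for Chrm4 (0.854), at 6.24 against 6.45 to 6.49.

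The region difference of Spock3 was smaller in CM than in SC mice, with an interaction of -2.16 (SE 0.52, limma adjusted p = 0.0269). In the fit with slide terms it was -0.40 (adjusted p = 0.854).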

How the results depend on the processing

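The direction of each of the 54 named probes was kept under every alternative run. Their calls by the wider rule were lost without the FC array of L58 or the ST arrays of L56 or L58 (52 probes each), with the mouse as a fixed replicate block (53), without the FC array of L54 (37), with the processed signal scaled at the 75th percentile (25), and in the fit with slide terms (20). The fit with slide terms also set the ST array of L58 aside, as given above. Tbr1 gained a call without the ST array of L54 and in the 23-array fit with a slide block. Of the list medians under the alternatives, 295 stayed within their spread between mice, 4 moved further and 1 turned. A turn was counted only for reported medians of at least 1.5-fold in size. Smaller medians could change sign uncounted, as for endothelium and mural cells, at -0.06 as reported and 0.10 in the fit with slide terms. The counted turn was that of hypothalamus markers, 0.99 as reported, between -0.0616 without the ST array of L52 and 1.40 without that of L54 when 1 array was left out, and 2.10 in the fit with slide terms.

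The counts of DE probes moved with most choices. By the main rule, with 2 probes as reported, and by the wider rule, with 503, the counts were 0 and 270 with fixed slide terms, 203 and 1415 with a random slide block, 0 and 0 with the mouse as a fixed replicate block, and 56 and 999 with no replicate block. They were 680 and 2966 in the model of the study on 23 arrays, 732 and 2723 without its weights, 975 and 2896 with a slide block added, and 67 and 1944 with array weights on the 8 arrays. They were 54 and 757 with an intensity trend, 50 and 860 for probes well above background (25422 rows), and 1 and 273 with the processed signal scaled at the 75th percentile. Requiring the difference itself to exceed 2-fold left 0 probes (227 at an unadjusted p under 0.05 in limma). Without both ST arrays of L52 and L54 the counts were 352 and 3028. Leaving out 1 array gave 0 to 228 and 1 to 1285, the highest without the ST array of L54, and the lowest of the wider rule without the ST array of L56 or either array of L58. The CM count of 2899 was 2868 with no replicate block and 2526 to 3006 without 1 array. The interaction count of 3146 was 287 with a slide block, 3871 with no replicate block, and 0 to 9397 without 1 array, 0 without the SC FC array of L58 or the CM FC array of O54 or O56. The cause of these shifts was not tested. Of the 503 calls, 38 were not well above background on any array of the dimmer region, 7 of them on no array.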

Other observations

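Eomes, a T-box factor known from olfactory bulb projection neurons, was chosen after its values were seen. It was at 11.36 in the FC array of L54, at 4.88, 5.25 and 5.25 in the FC arrays of L52, L56 and L58, and at 5.06 to 5.64 in the ST arrays. Gad1 was also highest in FC in that array, at 14.28 against 12.86 to 12.94 in the other FC arrays and 13.39 to 14.08 in the ST arrays.

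Further probes of genes described above were in the table. Bcl11b (1.20), Foxp1 (1.29 and 1.19), Rgs9 (2.01) and Scube3 (2.54) were again higher in ST, and Cux2 (-1.78) higher in FC, each past the wider rule, while a dim Foxp1 probe was at 0.54 without passing.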
